A study of Mus musculus with 84 samples.

Results

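The 38 genes of the mouse Hox clusters HoxA, HoxB, HoxC and HoxD described here were taken by name out of 21851 protein-coding genes that had a promoter window. No measured value set which genes were listed, but the set was chosen with earlier results of these data known. HoxA (10 genes) was taken as chr6:52160417-52262880, HoxB (10 genes) as chr11:96192316-96370256, HoxC (9 genes) as chr15:102919103-103038852 and HoxD (9 genes) as chr2:74666310-74767142 (GRCm38), each span running from the first to the last of these genes with 2000 bp added on both sides. The spans were 102, 178, 120 and 101 kb long.

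The 84 libraries were CUT&Tag profiles of 4 histone post-translational modifications (hPTMs) in adipocyte nuclei of male epididymal adipose tissue (epiAT). CUT&Tag cuts and tags DNA around an antibody-bound modification, and the files list the regions called as peaks. All mice carried AdipoERCre and NuTRAP, in which a tamoxifen-inducible Cre driven by the adiponectin promoter labels adipocyte nuclei for pulldown, and all, controls included, had received tamoxifen. C were chow-fed controls at 18 weeks of age and H were age-matched mice after 12 weeks of high-fat diet (HFD). HC had 12 weeks of HFD and then 8 weeks of chow, which brought weight loss (WL), and CC_s were their chow-fed controls at 26 weeks. HH had 25 weeks of HFD, with chow-fed CC_l at 31 weeks, and HHC had 25 weeks of HFD and then 8 weeks of chow, with chow-fed CCC at 39 weeks. Per the paper, controls first ate a low-fat chow, and CC_s and CCC were moved to standard chow with the WL groups. CC_s and C, and likewise CCC and CC_l, thus differed in chow as well as age. Of the 32 combinations of mark and group, 20 held 3 libraries and 12 held 2, and the numbers of replicates limited every comparison.

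Hox genes encode homeodomain transcription factors that give cells their position along the body axis. Within a cluster the genes lie in the order in which they are used from head to tail, and paralogue numbers run from 1 at the anterior end to 13 at the posterior end. Polycomb repressive complex 2 writes H3K27me3 over Hox genes that are kept silent, and trithorax-group complexes write H3K4me3 at promoters of genes that can be transcribed. H3K27ac marks active promoters and enhancers, and H3K4me1 marks enhancers in general. Adipose depots keep a depot-specific set of active Hox genes into adult life.

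Promoter sequences are shown for the genes with the most and the fewest H3K27ac libraries in each cluster, because these carry the contrast in H3K27ac; ties were settled by the number of H3K27me3 libraries and then by position. The genes were Hoxa4 and Hoxa10, Hoxb4 and Hoxb13, Hoxc5 and Hoxc11, and Hoxd3 and Hoxd10. RefSeq promoter sequences (GRCm38.p6) matched 22 of the 38 genes, among them 4 of these 8. Hoxa10 and Hoxd11 each had 2 entries, and for every gene only the entry nearest its outermost annotated start was used. The 250 bases before the start site are given 5′ to 3′, and capitals mark CG dinucleotides, the substrate of DNA methylation and the feature that is dense in CpG islands.
Hoxb4 (chr11:96318017-96318266, + strand): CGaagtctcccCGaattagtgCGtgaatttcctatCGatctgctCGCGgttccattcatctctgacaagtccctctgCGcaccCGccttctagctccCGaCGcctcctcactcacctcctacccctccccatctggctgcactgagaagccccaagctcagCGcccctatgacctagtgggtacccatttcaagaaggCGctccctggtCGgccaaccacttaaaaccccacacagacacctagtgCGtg
Hoxd3 (chr2:74711743-74711992, + strand): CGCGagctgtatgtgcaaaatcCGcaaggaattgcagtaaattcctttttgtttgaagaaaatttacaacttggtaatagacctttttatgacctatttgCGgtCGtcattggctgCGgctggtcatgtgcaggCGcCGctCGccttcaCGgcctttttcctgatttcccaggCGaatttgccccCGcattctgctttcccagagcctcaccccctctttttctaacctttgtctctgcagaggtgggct
Hoxa10 (chr6:52240855-52241104, - strand): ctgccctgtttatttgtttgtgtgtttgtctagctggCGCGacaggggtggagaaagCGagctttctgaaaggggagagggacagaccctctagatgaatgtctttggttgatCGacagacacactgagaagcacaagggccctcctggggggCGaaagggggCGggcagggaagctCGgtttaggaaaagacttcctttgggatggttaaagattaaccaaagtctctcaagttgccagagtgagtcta
Hoxd10 (chr2:74691641-74691890, + strand): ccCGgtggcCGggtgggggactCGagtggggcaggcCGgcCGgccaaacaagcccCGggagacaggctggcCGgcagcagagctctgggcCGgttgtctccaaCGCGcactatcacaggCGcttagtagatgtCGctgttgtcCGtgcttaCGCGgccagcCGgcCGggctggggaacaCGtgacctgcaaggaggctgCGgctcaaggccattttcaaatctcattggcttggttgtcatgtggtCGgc
Hoxb4 held 14 CG dinucleotides, Hoxd3 12, Hoxa10 7 and Hoxd10 20. The stretch before Hoxb4 was touched by H3K4me3 peaks in 20 of 21 libraries, by H3K27ac peaks in 14 of 21 and by H3K27me3 peaks in 2 of 20. For Hoxd3 the same numbers were 17 of 21, 4 of 21 and 5 of 20. The stretch before Hoxa10 was touched by H3K27me3 peaks in 19 of 20 libraries and by no H3K4me3 or H3K27ac peak, and that before Hoxd10 by H3K27me3 peaks in 18 of 20, H3K4me3 peaks in 2 of 21 and no H3K27ac peak. Across the 22 matched genes the CG number ranged from 2 at Hoxd11 to 35 at Hoxa13, with a median of 12, beside a median of 6 over 32851 promoters. TATAAA, the TATA box core, was present on either strand at Hoxb8, Hoxd4 and Hoxd13 (13.6% of the 22, beside 12.4% of all promoters). TGATTNAT, the site bound jointly by Hox and Pbx proteins, was present at Hoxa2 only among these 22 entries (4.55% beside 2.82%). TGACAG, the Meis site, was present at Hoxa2 and Hoxa3 (9.09% beside 15.9%). The unused entry of Hoxd11 held 1 TGATTNAT and 20 CG dinucleotides, and that of Hoxa10 held 1 TATAAA and 20 CG dinucleotides.

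The libraries held 11249 to 46397 peaks, and the lists carry no read counts, so the depth of each library is unknown and no counting interval can be given. The share of all promoters marked ranged from 41.7% to 66.0% for H3K4me3, 10.3% to 27.1% for H3K27me3, 17.7% to 55.1% for H3K27ac and 6.09% to 51.4% for H3K4me1. Adipocyte marker promoters were marked by H3K27ac at 6 to 10 of 10 genes per library. H3K27ac libraries of HC replicate 3, HH replicate 1 and HHC replicate 3 stood apart in endothelial markers, with 4 of 5 each. They had 8, 6 and 7 of 10 adipocyte markers and 4, 3 and 3 of 6 macrophage markers. Such macrophage counts also occurred elsewhere, with 6 in HHC replicate 1 and 3 in the control CCC replicate 1. H replicate 2 likewise had 8 adipocyte markers. Lep, the leptin gene, had no H3K27ac peak in any of these 3 libraries. These 3 mice also gave H3K27ac over 3.58%, 11.6% and 9.14% of the HoxC span, the lowest value of their group each time. Results that rest on them are also given without them. That choice was made after seeing the data, these HoxC values included, and it limits every p-value given without them. In 4 H3K4me3 libraries the title and the treatment field name different groups, and titles were used. In bulk nuclei, fewer cells of a type and less signal per cell cannot be told apart.

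In HoxA, HoxB and HoxC, genes of middle paralogue number carried H3K4me3 and posterior genes H3K27me3, whereas in HoxD all genes carried H3K27me3 in most libraries. A promoter was the 2000 bp either side of any coding start site, and it counted as marked when at least 1 bp of a peak lay in it. Of the 20 genes of paralogue groups 2 to 8, 19 carried H3K4me3 in at least 75% of libraries, and of the 16 genes of groups 9 to 13 only Hoxd9 did. H3K27me3 was present in at least 75% of libraries at 16 of 16 genes of groups 9 to 13 and at 6 of 20 genes of groups 2 to 8. The exception to H3K4me3 in groups 2 to 8 was Hoxd4, marked in 13 of 21 libraries. The paralogue 1 genes Hoxb1 and Hoxd1, which act in the hindbrain of the embryo, sided with the posterior genes, with H3K27me3 in 18 and 15 of 20 libraries and H3K27ac in none of 21.

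**Figure D1:**
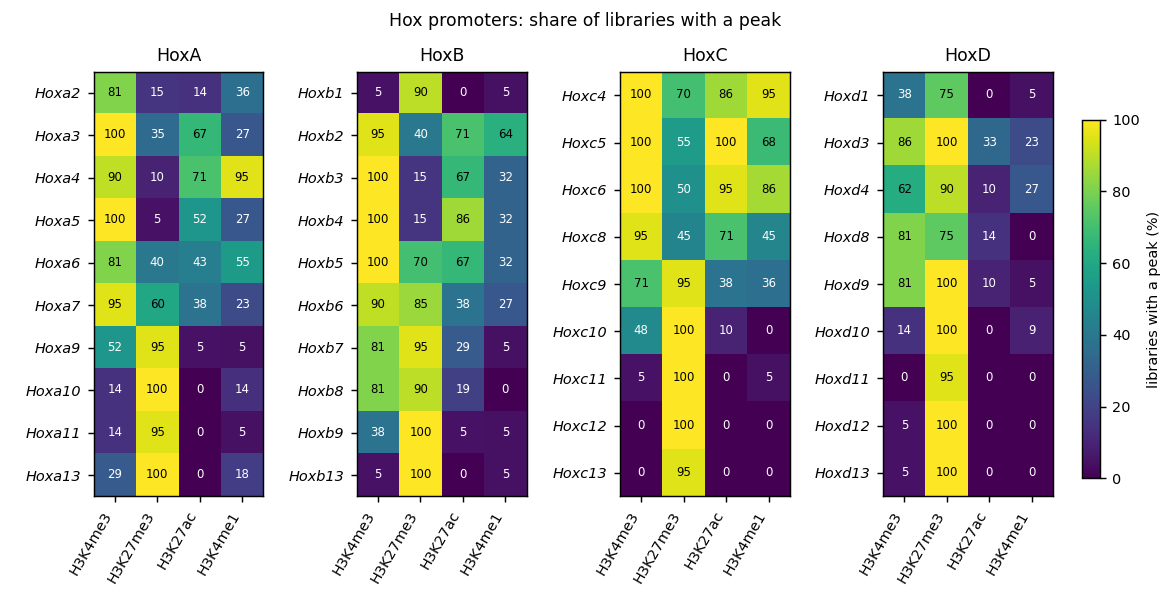
Share of libraries (%) with a peak in the promoter window of each of the 38 Hox genes, by cluster (panels), gene (rows, paralogue 1 to 13 downwards) and hPTM (columns); the printed number is the share. H3K4me3, at 100% for Hoxc4 to Hoxc6, gives way to H3K27me3, at 95% to 100% from Hoxc9 to Hoxc13.

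Hox promoters as a group were richer in H3K27me3 than promoters in general. Per library a median of 26.5 of 38 Hox promoters carried H3K27me3, or 69.7%, beside a median of 17.5% over all promoters, and the Hox share was above the share of all promoters in 20 of 20 libraries. For H3K4me3 the median was 25 promoters (65.8%, beside 58.1%), with the Hox share higher in 14 of 21 libraries. For H3K27ac it was 10 promoters (26.3%, beside 40.4%), and the Hox share was higher in 3 of 21 libraries. For H3K4me1 it was 8.5 promoters (22.4%, beside 17.7%), higher in 13 of 22.

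HoxA changed state between Hoxa7 and Hoxa9. Hoxa2, which patterns the branchial arches, had H3K4me3 in 17 of 21 libraries and H3K27ac in 3 of 21. Hoxa4 and Hoxa5 had H3K4me3 in 19 and 21 libraries, H3K27ac in 15 and 11, and H3K27me3 in 2 and 1 of 20. Hoxa4 also had the most H3K4me1 of the cluster, in 21 of 22 libraries. Hoxa7 carried both sides, with H3K4me3 in 20 of 21 and H3K27me3 in 12 of 20. Hoxa9 had H3K27me3 in 19 of 20 and H3K4me3 in 11 of 21, and Hoxa10, Hoxa11 and Hoxa13, genes of limb and genital tract patterning, had no H3K27ac peak in any of 21 libraries. The annotated coding start of Hoxa3 lies between Hoxa6 and Hoxa7, so its window (H3K4me3 in 21, H3K27ac in 14) reports on that interval.

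In HoxB, H3K27ac was most frequent from Hoxb2 to Hoxb5, and both methylation marks were frequent from Hoxb5 to Hoxb8. Hoxb2 and Hoxb5 had H3K4me3 in 20 and 21 of 21 libraries, H3K27ac in 15 and 14 of 21, and H3K27me3 in 8 and 14 of 20. Hoxb4 had H3K4me3 in 21 of 21 libraries, H3K27ac in 18 of 21 and H3K27me3 in 3 of 20. Hoxb3 had the same H3K4me3 and H3K27me3 counts and H3K27ac in 14. Hoxb6, Hoxb7 and Hoxb8 carried H3K4me3 in 19, 17 and 17 of 21 libraries and H3K27me3 in 17, 19 and 18 of 20; the windows of Hoxb7 and Hoxb8 overlap, the only such pair. Hoxb9 had H3K27me3 in 20 of 20 and H3K4me3 in 8 of 21, and Hoxb13, which lies apart from the rest of the cluster, had H3K27me3 in 20 and H3K4me3 in 1.

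HoxC had the widest active end. Hoxc5 and Hoxc6 had the most H3K27ac of all Hox genes, in 21 and 20 of 21 libraries, followed by Hoxc4 and Hoxb4 with 18 each. Hoxc4, Hoxc5 and Hoxc6 had H3K4me3 in 21 of 21. Hoxc4 and Hoxc6 had H3K4me1 in 21 and 19 of 22. H3K27me3 was nevertheless found at these promoters in part of the libraries, 14, 11 and 10 of 20 for Hoxc4, Hoxc5 and Hoxc6. Hoxc9 and Hoxc10 formed the transition, with H3K4me3 in 15 and 10 of 21 and H3K27me3 in 19 and 20 of 20, and Hoxc12 and Hoxc13 had no peak of H3K4me3, H3K27ac or H3K4me1 in any library.

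HoxD was the least active cluster. Its highest H3K27ac count was 7 of 21 libraries, at Hoxd3, and Hoxd10 to Hoxd13 had none. H3K27me3 was present in at least 15 of 20 libraries at every one of its 9 genes. Hoxd3, Hoxd8 and Hoxd9 also had H3K4me3 in 18, 17 and 17 of 21 libraries, and with Hoxb6, Hoxb7 and Hoxb8 they made up the 6 Hox genes with both marks in at least 75% of libraries (15.8% of 38, beside 405 of 21851 promoters, 1.85%). In the 20 pairs of H3K4me3 and H3K27me3 libraries with the same group and replicate number, 1 to 26 Hox promoters carried both marks, with a median of 14. Both marks on 1 allele and different cells with 1 mark each cannot be told apart in these lists.

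By a count of 1-kb steps over the control libraries, the 2 methylation marks occupied mostly separate stretches in HoxA, HoxB and HoxC. A 1-kb step was counted for a mark when at least 50% of control libraries had at least 50% of it covered by peaks. In HoxC, 57 steps of 120 held H3K27me3 alone, 49 H3K4me3 alone, 4 both and 10 neither. In HoxA the numbers were 34, 40, 1 and 28 of 103. HoxB had 75 steps with H3K27me3 alone, 36 with H3K4me3 alone and 3 with both of 178, and HoxD had 57, 8 and 5 of 101. H3K27ac held 44 steps in HoxC, of which 41 also had H3K4me3, 19 in HoxA, 15 in HoxB and 0 in HoxD.

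**Figure D2:**
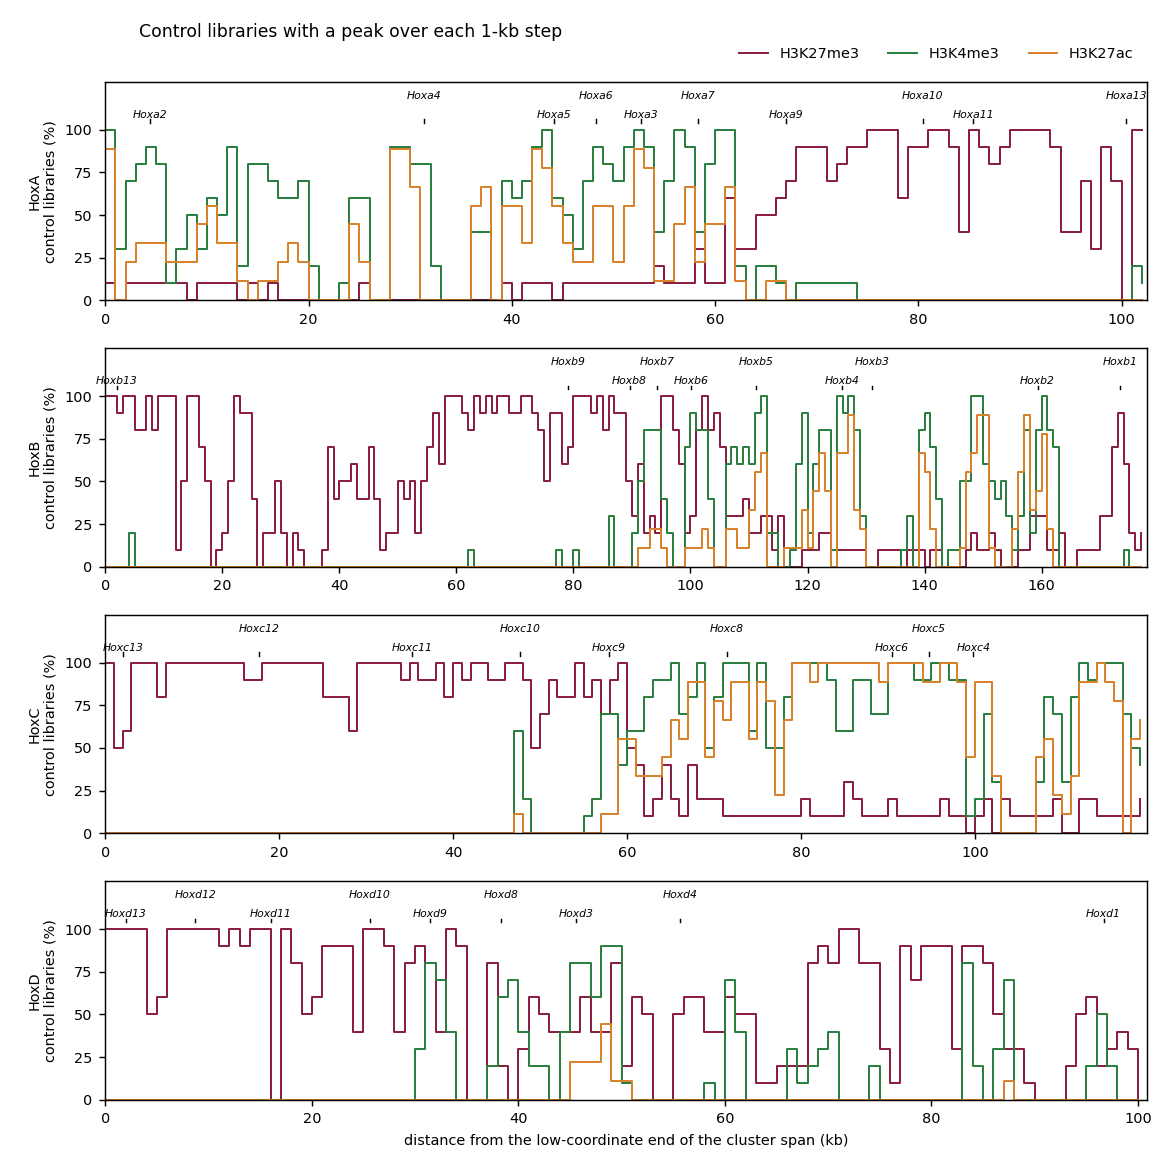
Share of control libraries (%) in which peaks covered at least 50% of each 1-kb step, against distance (kb) from the low-coordinate end of each cluster span, for H3K27me3 (10 libraries), H3K4me3 (10 libraries) and H3K27ac (9 libraries); ticks mark the outermost coding start of each gene. H3K27me3 fills the Hoxc13 to Hoxc9 side of HoxC and the Hoxa9 to Hoxa13 side of HoxA, and H3K4me3, with H3K27ac inside it, lies on the other side.

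H3K27me3 in all clusters, and H3K4me3 in HoxA and HoxC, covered a share of the span that few 100-kb windows exceeded. The spans were longer than the windows, and the widths of single domains were not ranked. Over all libraries of the mark, H3K27me3 covered a median of 46.8% of HoxC, 47.7% of HoxD, 38.6% of HoxB and 30.1% of HoxA, above 98.6% to 99.7% of the 11684 windows of 100 kb that hold a coding start site. H3K4me3 covered a median of 34.3% of HoxA and 34% of HoxC, above 99.9% of windows for both. H3K27ac covered a median of 25.2% of HoxC, above 99.3% of windows. It covered 5.92%, 6.29% and 1.2% of HoxA, HoxB and HoxD, above 83.1%, 84.3% and 48.5% of windows. The strongest H3K27me3 peak of each cluster, by total signal within its own library, never fell below the 96.1 percentile of that library's peaks. For H3K27ac the strongest HoxC peak had a median percentile of 98.8 and the strongest HoxD peak 55.9, in the 13 of 21 libraries with a HoxD peak. Each percentile is that of the highest among all peaks in a span, and more peaks give more chances of a high rank. The number of peaks differed between clusters and libraries, so these percentiles do not compare like with like. The widest single H3K4me3 peak in HoxC had a median width of 11.1 kb and reached 43 kb.

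H3K27ac was narrower in HoxA, HoxB and HoxC of obese mice than of their age-matched controls. In HoxA, peaks covered 25.5%, 20.5% and 12.3% of the span in C and 1.96%, 0.873% and 0.252% in H. They covered 41% and 30.3% in CC_l and 4.90%, 10.4% and 1.01% in HH. Both obese groups lay wholly below their controls. The difference was −24.3 percentage points averaged over the 12-week and 25-week cohorts (exact two-sided permutation within cohort, p = 0.005, the smallest p this design allows; Benjamini-Hochberg adjusted over 32 tests, 0.0533). Of these 32 exact permutation tests, 7 reached an unadjusted p of 0.05 and 0 an adjusted one. HoxC gave 39.3%, 38.7% and 32.9% in C against 8.36%, 2.03% and 5.26% in H, and 42.3% and 40.6% in CC_l against 11.6%, 34.8% and 37.5% in HH. Groups again did not overlap, though HH replicates 2 and 3 lay close to CC_l (difference −22.6 points, exact permutation p = 0.015, adjusted 0.12). HoxB was lower by a smaller amount, −6.26 points (exact permutation p = 0.005, adjusted 0.0533), with 4.07% to 10.5% in C, 0% to 1.81% in H, 13.7% and 17.8% in CC_l and 7.89% to 10.6% in HH. In HoxD the difference was 1.1 points (exact permutation p = 0.38), on a span with at most 4.98% covered in any of these controls.

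Narrower H3K27ac was not particular to Hox clusters, and the lists themselves were smaller. Of 9072 windows of 100 kb with any H3K27ac, 21.6% were lower in obese mice by the same test and 1.07% were higher. Peaks of the H libraries covered 9.60 to 24.4 Mb of the genome in all, beside 42.8 to 49.0 Mb in C, whereas HH (76.7 to 85.8 Mb) and CC_l (76.2 and 90.1 Mb) were alike. When each span was expressed as its share of all base pairs covered in the library, the HoxA difference was −2.87 (log2 scale, exact permutation p = 0.01), that of HoxB −1.39 (p = 0.005, exact permutation) and that of HoxC −0.95 (exact permutation p = 0.02), beside a median of 0.15 over all windows. On that scale 7.13% of windows were lower and 13.9% higher in obese mice. By size, the HoxA and HoxC differences in percentage points were larger than those of 99.9% of the windows. A window cannot lose more than it has covered, and the median window had 1.11% covered by H3K27ac. The rank by points therefore reflects in part the high coverage of HoxA and HoxC in controls. Macrophage markers with an H3K27ac peak numbered 4, 2 and 0 of 6 in H against 1 in each C library, and 3, 4 and 2 in HH against 1 in each CC_l library; their part in the result was not tested. The library of H replicate 3, with 0 of 6 macrophage markers and 0.252% of HoxA covered, was also the smallest H3K27ac list, with 12174 peaks over 9.60 Mb. Without HH replicate 1 the differences were −24.2 points in HoxA, −6.54 in HoxB and −18.5 in HoxC (exact permutation p = 0.0167 each, here the smallest possible), and the HoxC difference on the log2 share scale was −0.70 (exact permutation p = 0.0167).

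**Figure D3:**
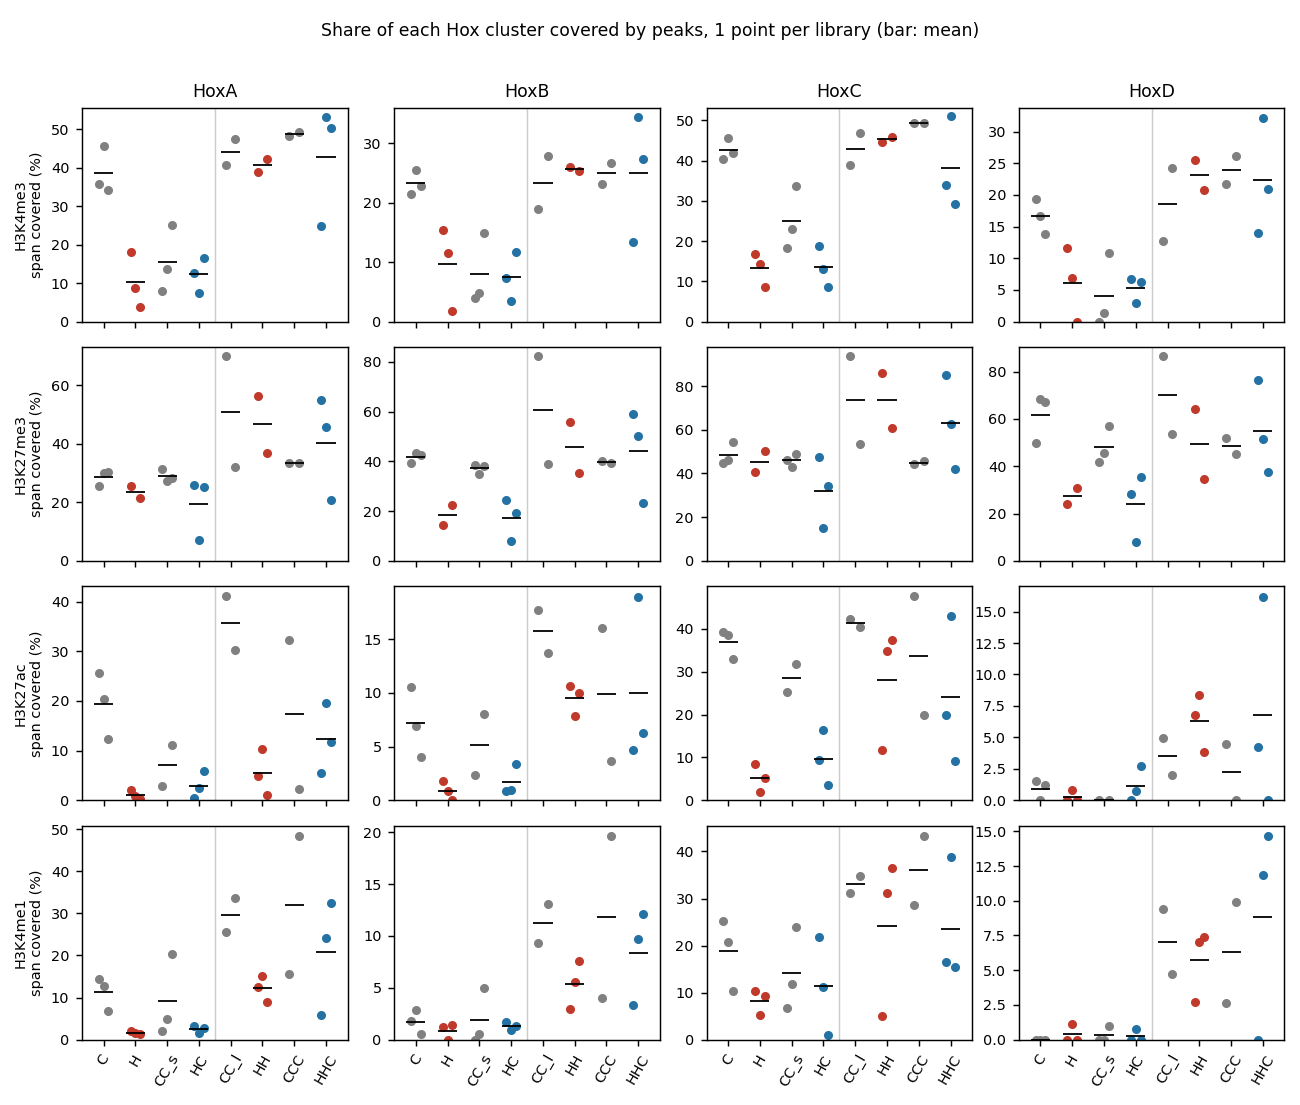
Share of each Hox cluster span (%) covered by peaks, by hPTM (rows), cluster (columns) and diet group (x axis), with 1 point per library and a bar at the group mean; grey points are chow-fed controls, red points obese and blue points WL groups. In the H3K27ac row, H and HH lie below C and CC_l in HoxA, HoxB and HoxC.

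At single promoters, 4 Hox genes lost H3K27ac in H against C, meaning that every C library and no H library was marked: Hoxa3, Hoxb3, Hoxb5 and Hoxc8 (4 of 38, beside 1.94% of all promoters lost and 0.146% gained; 0 Hox promoters gained). In HH against CC_l, Hoxa2 and Hoxa5 were lost, in 0 of 3 against 2 of 2 libraries (2 of 38, beside 0.403% of all promoters lost and 0.448% gained). Hoxa5, which patterns the lung and axial skeleton, was marked in 1 of 6 obese and 8 of 9 control libraries, and in 2 of 6 WL libraries. Hoxa4 was marked in 2 of 6 obese, 8 of 9 control and 5 of 6 WL libraries. Hoxc8, a regulator of brown fat differentiation, was marked in 2 of 6 obese and 9 of 9 control libraries. In contrast, Hoxc5 and Hoxc6 kept an H3K27ac peak in 6 of 6 obese libraries. The Hoxb3 difference depended on the window, since it was 0 when 1 start site per gene was used.

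**Figure D4:**
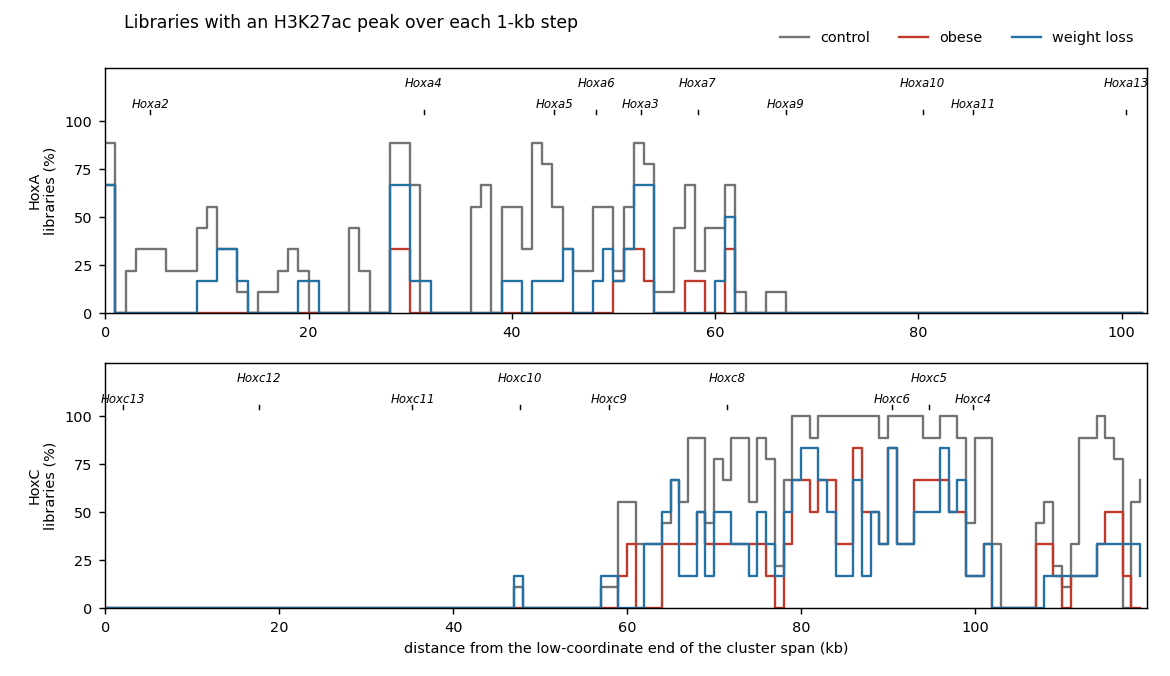
Share of libraries (%) in which H3K27ac peaks covered at least 50% of each 1-kb step of HoxA (upper) and HoxC (lower), against distance (kb) from the low-coordinate end of the span, for controls (9 libraries), obese (6) and WL (6). Steps covered in at least 50% of libraries number 19 in controls, 1 in obese and 6 in WL mice for HoxA, and 44, 18 and 21 for HoxC.

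After WL, H3K27ac coverage overlapped that of the controls in HoxA, and in HoxC it overlapped in the 25-week cohort and was lower in the 12-week cohort. HoxA coverage was 0.414%, 2.43% and 5.92% in HC and 2.80% and 11.2% in CC_s, and 5.56%, 19.5% and 11.7% in HHC against 32.3% and 2.25% in CCC. The difference was −4.54 points (exact permutation p = 0.49). Both CC_s values lay below those of the younger controls C, which ran from 12.3% to 25.5%. In HoxC, HC had 9.33%, 16.3% and 3.58% and lay below CC_s with 25.2% and 31.8%, whereas HHC (19.9%, 43.2% and 9.14%) overlapped CCC (47.7% and 19.8%), with a difference of −14.2 points (exact permutation p = 0.15). Without HC replicate 3 and HHC replicate 3 the HoxC difference was −8.98 points (exact permutation p = 0.389) and the HoxA difference −5.15 points (exact permutation p = 0.556). On the log2 share scale, over all libraries, WL differences were −1.47 in HoxC (exact permutation p = 0.06) and −1.01 in HoxB (exact permutation p = 0.08). They were −0.86 in HoxA (exact permutation p = 0.19) and 1.81 in HoxD (exact permutation p = 0.32), beside a median of 0.32 over all windows. The obese difference in HoxC on that scale was −0.95. CCC replicate 3 covered 20.9 Mb in all and CCC replicate 1 94.3 Mb, so that this control group spans a wide range. Whether the obese and the WL differences differ from each other was not tested. In HC against CC_s, Hoxb3 was the only Hox promoter called, lost in 3 of 3 HC libraries (1 of 38, beside 0.499% of all promoters lost and 0.297% gained), and in HHC against CCC no Hox promoter was called for H3K27ac (beside 2.32% gained and 0.0686% lost). None of the 16 exact permutation tests of WL groups, over the 4 marks and 4 clusters, passed p = 0.05. Of all windows tested after WL, 1.06% were lower and 2.7% higher for H3K27ac, 2.22% and 6.69% for H3K4me3, 9.58% and 4.6% for H3K27me3, and 2.28% and 6.48% for H3K4me1.

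H3K4me1 followed the same order in HoxA. Coverage was 14.3%, 12.6% and 6.73% in C and 2.02%, 1.56% and 1.32% in H, and 25.6% and 33.6% in CC_l against 12.6%, 15.1% and 9.04% in HH, without overlap (difference −13.5 points, exact permutation p = 0.005, adjusted 0.0533; 7.16% of windows lower and 10.1% higher in obese mice). On the log2 share scale the HoxA difference was −1.90 (exact permutation p = 0.01) and that of HoxC −0.94 (exact permutation p = 0.035; −0.63 and 0.0167 without HH replicate 1), beside 9.03% of windows lower and 14.5% higher. HoxB differed by −3.34 points (exact permutation p = 0.035, adjusted 0.187), by −2.75 points without HH replicate 1 (exact permutation p = 0.0667) and by −1.33 on the log2 share scale (exact permutation p = 0.07). After WL the HoxA difference on that scale was −1.01 (exact permutation p = 0.085), and −1.42 without HC replicate 3 and HHC replicate 3 (exact permutation p = 0.0333), beside 7.43% of windows lower and 12.4% higher over all libraries. The exclusion was chosen after seeing the data. At promoters, Hoxa5 and Hoxb3 lost H3K4me1 in HH against CC_l, in 0 of 3 against 2 of 2 libraries. These were 2 of 38, beside 0.705% of all promoters lost and 2% gained. H3K27ac at Hoxa5 had the same direction in these mice, whereas Hoxb3 had an H3K27ac peak in every HH and CC_l library. Hoxb6 gained H3K4me1 in HHC against CCC, in 3 of 3 against 0 of 2 libraries (1 of 38, beside 3.98% gained and 0.494% lost). No Hox promoter was called for H3K4me1 in H against C (beside 0.59% of all promoters gained and 0.32% lost) or in HC against CC_s (beside 0.215% gained and 0.101% lost).

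H3K4me3 covered less of each cluster in every H library than in any C library, whereas HH and CC_l, grouped by title, overlapped. HoxA coverage was 35.6%, 45.7% and 34.3% in C and 18.1%, 8.85% and 3.89% in H, against 40.7% and 47.6% in CC_l and 38.8% and 42.4% in HH (difference over both cohorts −15.9 points, exact permutation p = 0.0333, adjusted 0.187; 5.36% of windows lower and 0.0405% higher). In HoxC the C libraries had 40.5%, 45.5% and 41.8% and the H libraries 16.9%, 14.3% and 8.64%, with CC_l at 38.9% and 46.9% and HH at 44.7% and 45.8%. The later controls CC_s, never on HFD, also lay below C in HoxC, at 18.4%, 23.1% and 33.6%. Covered base pairs moved the same way, with 41 to 53.4 Mb in C, 11 to 30.2 Mb in H and 16.4 to 38.1 Mb in CC_s. As a share of all covered base pairs, H3K4me3 differed by −0.75 in HoxA and −0.44 in HoxC of obese mice (log2 scale, exact permutation p = 0.0167 each), beside 7.8% of windows lower and 9.31% higher. After WL it differed by −0.77 in HoxC (exact permutation p = 0.01) and −0.36 in HoxA (exact permutation p = 0.05), beside 7.05% of windows lower and 7.64% higher on that scale. Without HC replicate 3 and HHC replicate 3 these WL differences were −0.40 in HoxC (exact permutation p = 0.0333) and −0.43 in HoxA (exact permutation p = 0.05). When groups were read from the field that disagrees with 4 titles, the HoxA difference was −10.7 points (exact permutation p = 0.133). The 4 libraries are CC_l replicate 2, HH replicates 2 and 3 and CCC replicate 3, so the overlap in the 25-week cohort rests on the titles. By that field, HH had 47.6% and 49.3% of HoxA covered and CC_l 40.7% and 42.4%, without overlap. HH then also lay above CC_l in HoxB, HoxC and HoxD. Hoxc10, at the HoxC transition, lost H3K4me3 in H against C, in 0 of 3 against 3 of 3 libraries (1 of 38, beside 1.71% of all promoters lost and 0.00458% gained). In CC_s against C, which differed in age and chow but had no HFD, Hoxc9 and Hoxc10 were lost (2 of 38, beside 1.73%). In HC against CC_s no Hox promoter was called for H3K4me3 (beside 0.32% gained and 0.0183% lost). By the titles, Hoxb9 was lost in HH against CC_l (0 of 2 against 2 of 2, which was 1 of 38, beside 0.481%). It was gained in HHC against CCC (3 of 3 against 0 of 2, which was 1 of 38, beside 1.39%). By the treatment field, HH would be CC_l replicate 2, marked, and CCC replicate 3, unmarked. CC_l would be CC_l replicate 1, marked, and HH replicate 3, unmarked. The loss in HH would then not be called, whereas the gain in HHC would. Hoxb9 was also lost in CCC against CC_l, which differed in age and chow but had no HFD (0 of 2 against 2 of 2). That was 1 of 38, beside 0.288% lost and 0.462% gained. By the treatment field this loss would not be called either.

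H3K27me3 was gained at the active end of HoxC in HHC against CCC. Hoxc4, Hoxc5, Hoxc6 and Hoxc8 were marked in 3 of 3 HHC and 0 of 2 CCC libraries, as was Hoxa7 at the HoxA transition (5 of 38 gained, beside 1.37% of all promoters gained and 0.732% lost; 0 Hox promoters lost). Over all groups, Hoxc6 was marked in 8 of 10 libraries of HFD-fed mice (4 of 4 obese and 4 of 6 WL) and in 2 of 10 controls. Hoxc5 was marked in 9 of 10 and 2 of 10, Hoxc4 in 10 of 10 and 4 of 10, Hoxc8 in 7 of 10 and 2 of 10, and Hoxa7 in 9 of 10 and 3 of 10. Other genes had the opposite order, with Hoxb6 in 7 of 10 libraries of HFD-fed mice and 10 of 10 controls, Hoxd8 in 6 and 9, Hoxd4 in 8 and 10 and Hoxb1 in 8 and 10. Of the 38 genes, 10 were marked in more libraries of HFD-fed mice, 13 in fewer and 15 in as many. The marked controls for Hoxc6 were C replicate 3 and CC_l replicate 1. By contrast Hoxa10, Hoxa13, Hoxb9, Hoxb13, Hoxc10, Hoxc11, Hoxc12, Hoxd3, Hoxd9, Hoxd10, Hoxd12 and Hoxd13 had H3K27me3 in 20 of 20 libraries, so presence of a peak could not differ there. These pooled counts were described and not tested, and no Hox promoter was called for H3K27me3 in H against C, HC against CC_s or HH against CC_l (beside 1.29%, 0.165% and 1.05% of all promoters gained and 1.61%, 0.828% and 0.943% lost). In HH against CC_l this rests on CC_l replicate 1, which was marked at 37 of 38 Hox genes. Both HH libraries and CC_l replicate 1, but not CC_l replicate 2, were marked at Hoxa3, Hoxa6, Hoxa7, Hoxb2, Hoxc4, Hoxc5, Hoxc6 and Hoxc8, and without CC_l replicate 1 the calls for this mark over all comparisons numbered 13. A single control library makes the rule easier to meet at any promoter, and the share over all promoters was not computed for that setting. The share of all promoters with H3K27me3 was 20.5% to 26.0% in HHC and 17.9% and 20.9% in CCC, and adipocyte marker promoters with H3K27me3 numbered 3 to 5 of 10 in HHC and 1 in each CCC library; their part in the result was not tested. Without HC replicate 3 and HHC replicate 3 these 5 genes were again called, and the Hox calls for this mark numbered 9 in all.

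**Figure D5:**
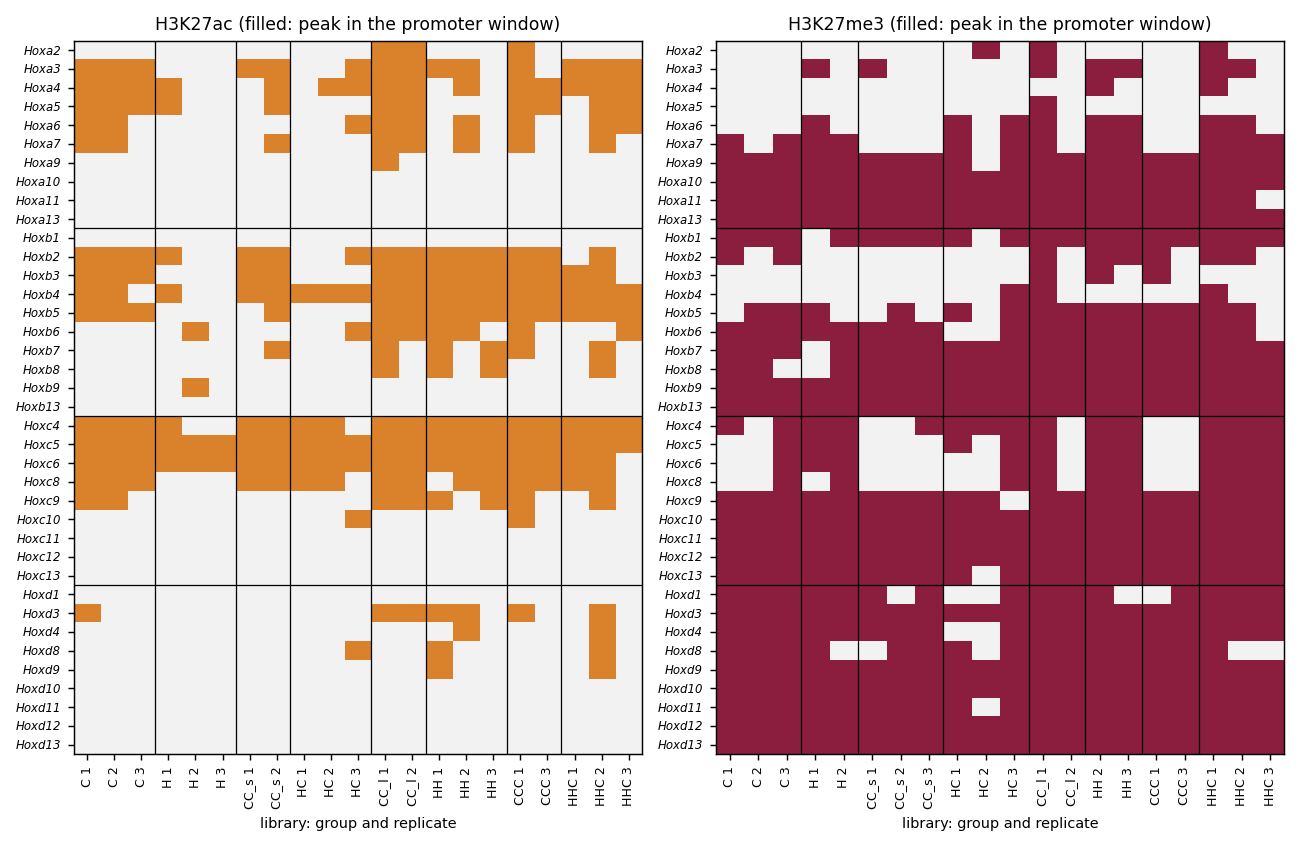
Presence (filled) or absence (light) of an H3K27ac peak (left) and an H3K27me3 peak (right) in the promoter window of each of the 38 Hox genes (rows, black lines between clusters) in each library (columns, group and replicate, black lines between groups). H3K27ac is present at 2 to 7 Hox promoters in H and 10 to 15 in C libraries, and H3K27me3 at Hoxc4 to Hoxc8 is filled in all HHC and no CCC library.

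The span covered by H3K27me3 was larger in HHC than in CCC on average, at 63.2% against 45% in HoxC, 40.4% against 33.6% in HoxA, 44.2% against 39.9% in HoxB and 55.1% against 48.7% in HoxD. In the 12-week WL cohort the order was the opposite, with 32.2% in HC against 46% in CC_s for HoxC, and over both cohorts the HoxC difference was 2.16 points (exact permutation p = 0.845). On the log2 share scale the WL differences were 0.39 in HoxC (exact permutation p = 0.155) and 0.18 in HoxA (exact permutation p = 0.62), beside a median of 0.71 over all windows, 19.1% of windows higher and 6.31% lower. Without HC replicate 3 and HHC replicate 3, an exclusion chosen after seeing the data, they were 0.68 (exact permutation p = 0.0167) and 0.46 (exact permutation p = 0.05). In HoxD coverage was lower in obese mice, at 49.6%, 68.3% and 67.2% in C against 23.9% and 30.8% in H, and 86.5% and 53.6% in CC_l against 64.1% and 34.8% in HH (difference −27.5 points, exact permutation p = 0.05, adjusted 0.229; 10.4% of windows lower and 2.83% higher in obese mice). As a share of all covered base pairs the HoxD difference was 0.03 (log2 scale, exact permutation p = 0.867), and H libraries covered 16.9 and 19.97 Mb beside 43 to 64.1 Mb in C. HoxC coverage overlapped between obese mice and controls, with a difference of −1.61 points (exact permutation p = 0.783). On the log2 share scale HoxC differed by 0.84 (exact permutation p = 0.0333) and HoxA by 0.71 (exact permutation p = 0.05), beside a median of 0.67 over all windows and 26% of windows higher and 7.31% lower. CC_l replicate 1 had the broadest H3K27me3 of the series, over 93.9% of HoxC and 82.2% of HoxB, beside 53.5% and 38.9% in CC_l replicate 2.

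Regulators of Hox clusters, from lists fixed by name, stood mostly on the active side. H3K4me3 was present in at least 75% of libraries at 11 of 11 genes of polycomb repressive complex 2, 12 of 12 of polycomb repressive complex 1, 9 of 9 of the trithorax group and H3K27 demethylases, and 9 of 9 TALE cofactors, the Pbx, Meis and Pknox proteins that bind DNA with Hox proteins. H3K27me3 reached 75% of libraries at 1 of these 41 genes, the cofactor Pknox2 (20 of 20). Over all promoters, 52.9% had H3K4me3 and 11.4% had H3K27me3 in at least 75% of libraries. The median share of libraries with H3K27ac was 90.5% for the trithorax list, 81.0% for the cofactors, 71.4% for polycomb repressive complex 2 and 50% for polycomb repressive complex 1. Over the 4 diet comparisons these 41 genes had 1 gain and 0 losses of H3K4me3, 3 gains and 0 losses of H3K27me3, 1 gain and 2 losses of H3K27ac, and 8 gains and 0 losses of H3K4me1. The 8 gains were 4.88% of 164 genes and comparisons, beside 1.69% over all promoters, and the 3 gains of H3K27me3 were 1.83% beside 0.968%. The 6 ParaHox genes, evolutionary sisters of the Hox clusters with roles in gut and brain, resembled posterior Hox genes, with H3K27me3 in at least 75% of libraries at 6 of 6 and H3K27ac in none. Of 14 genes that flank the clusters, 9 carried H3K4me3 and 4 carried H3K27me3 in at least 75% of libraries. Evx1 beside Hoxa13 and Evx2 beside Hoxd13, homeobox genes themselves, had H3K27me3 in 20 of 20 libraries and H3K4me3 in 2 of 21, while Hibadh and Snx10 near HoxA had H3K4me3 in 21 of 21 and H3K27me3 in none.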

How the data were processed

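Peak lists of 84 CUT&Tag libraries were analysed, all in GRCm38 coordinates. Per the submitters' notes and the study's methods, the authors trimmed reads (Trim Galore 0.6.6), aligned them (Bowtie2 2.4.4, SAMtools 1.13) and called peaks per library with SEACR 1.3 in stringent mode at a fixed numeric threshold (with bedtools 2.30). Each deposited list gives, per peak, its position, total signal and highest coverage signal, and replicates were not pooled. Breadth and number of peaks can move with depth and background. Start sites came from the GENCODE M21 basic annotation (41438 sites). Overlaps, coverage and exact permutation tests (labels permuted within cohort, both cohorts weighted equally, two-sided, Benjamini-Hochberg over 32 tests) were computed in Python 3.11.15 with NumPy 2.4.6 and pandas 2.3.3, and checked on simulated data. The count model of the study needs read counts and was not run. Named genes were those gained or lost in a diet comparison, the most and least acetylated gene of each cluster, and genes with H3K4me3 and H3K27me3 in at least 75% of libraries; others are named to describe the order within clusters. The genes, lists and tests were chosen with earlier results of these data known. Replicates are biological replicates per the labels. Alternatives changed window, start sites, overlap, number of peaks, span, scale, groups and libraries.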

Additional observations from a re-analysis of the deposited data

Results flagged for a closer look

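Diet differences in extent differed between the cohorts in 2 of 32 tests over the 4 marks, both for H3K4me3, and none passed after adjustment (smallest adjusted p 0.64, exact permutation within cohort). In HoxC the obese difference was −29.3 points in the 12-week cohort and 2.31 points in the 25-week cohort, a change of 31.6 points (exact permutation p = 0.05). In HoxB it was −13.6 and 2.31 points, a change of 15.95 points (exact permutation p = 0.05). Neither passed as a share of all covered base pairs, at 0.29 (exact permutation p = 0.483) for HoxC and 0.38 (exact permutation p = 0.717) for HoxB on the log2 scale. Groups of 2 or 3 libraries are too small for a test of single outlying libraries.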

How the results depend on the processing

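H3K27ac extents in HoxA, HoxB and HoxC of obese mice kept their direction and side of the threshold on the log2 scale and without any single library. Counts of clusters past p = 0.05 by exact permutation, out of 8 tests per mark, otherwise moved as follows. As a log2 share of covered base pairs they were 4 for H3K4me3 and 2 for H3K27me3, and the H3K27me3 difference in HoxD turned to 0.028 (exact permutation p = 0.867). When every library was cut to the same number of peaks they were 2 for H3K4me3 and 1 for H3K4me1, and with the stronger 50% of peaks 0 for H3K27me3 and 1 for H3K4me1. With groups from the treatment field the H3K4me3 count was 0 and its cohort differences numbered 4. Either cohort alone gave 0 for every mark, where 3 against 3 libraries cannot go below 0.1. Leaving out HC replicate 3, HH replicate 1 and HHC replicate 3, chosen after seeing the data, gave 1 for H3K4me1 and 4 cohort differences for H3K27me3; cohort differences for H3K4me3 were 0 on the log2 scale.

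Same-numbered libraries did not deviate together (r from −0.822 to 0.477, median −0.0114, over 0.1 in 11 of 36 pairs), so the replicate number was not taken as pairing. With it as a replicate block the extents past the threshold were 0 for every mark, in tests that cannot pass it, and promoters gained or lost were 6 for H3K4me3, 17 for H3K27me3 and 6 for H3K4me1. The H3K27me3 difference in HoxD missed p = 0.05 by exact permutation without any 1 library of its groups, and the H3K4me1 difference in HoxB without any 1 of 6. Leaving out single libraries gave 3 to 5 extents for H3K27ac, 0 to 2 for H3K27me3, 1 to 2 for H3K4me1 and 1 to 3 for H3K4me3, and 0 to 4 cohort differences for H3K27me3 and 0 to 3 for H3K4me3. Promoters gained or lost then ranged from 7 to 11 for H3K27ac, 5 to 13 for H3K27me3 (13 without CC_l replicate 1, 9 without H replicate 2, 8 without HC replicate 2 or CC_l replicate 2), 3 to 5 for H3K4me1 and 3 to 5 for H3K4me3.

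Gained or lost promoters for H3K27me3 numbered 9 with equal numbers of peaks, 10 with the stronger 50% and 9 without those 3 mice. For H3K4me1 they numbered 1 with the stronger 50% and 5 without those mice. Counts of gained or lost promoters under any alternative covered Hox promoters only. The matching share over all promoters was not computed, so no such count can be read as above or below it. Mean Hox promoters marked per library were 15.2 for H3K4me3 with equal numbers of peaks, 16.2 with the stronger 50%, and 22.9 for H3K27me3 with 500 bp windows. The causes were not tested. Without read counts, a missing peak cannot be told from too little depth.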
